A study of Mus musculus with 15 samples.

Results

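The levels of 42 genes of the synaptic vesicle cycle and regulated exocytosis, of 18193 genes measured, were compared between mouse lung tumours and normal lung. The genes were chosen by name, with earlier results of these data known, so their comparison with all genes is a description. Each was read from its brightest probe set (averaged over the 15 arrays), and all 42 were measured. They were divided by role into SNARE proteins (4 genes), SNARE recycling factors (2), calcium sensors and complexins (7), priming factors (5), Rab3 proteins with their effector rabphilin (5), active zone scaffolds (5), vesicle membrane proteins and synapsins (10) and vesicle endocytosis proteins (4). The arrays measured total RNA of 10 Rb/p53 tumours (Rb Δ/Δ and p53 Δ/Δ, numbered 1 to 10), 3 Rb/p53/p130 tumours (numbered 11 to 13, p130 Δ/Δ in addition to both other deletions) and 2 tumour-free lungs of wild-type adult mice. Both tumour groups were cut out of lungs that had received a Cre-expressing adenovirus through the nose, so both lack Rb and p53 and both had been exposed to virus and Cre, which the labels do not give for the normal lungs. The first group was aged for 8 to 12 months after infection and the second for 6 months, so age and p130 cannot be told apart. The series sets these tumours up as a model of human small cell lung cancer, a neuroendocrine tumour. The labels do not say whether each array came from a separate mouse, so p-values measure the spread between these samples, which may be partly technical.

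Neurons and neuroendocrine cells release transmitters, amines and peptides by fusing vesicles with the plasma membrane when calcium enters. A vesicle is tethered by Rab3 and the active zone scaffold, made ready by Munc13 and CAPS proteins, held by complexin on a partly zippered SNARE bundle, and fused when synaptotagmin binds calcium; endocytic proteins then retrieve the membrane. Pulmonary neuroendocrine cells, a rare cell type of the airway lining and a known origin of small cell lung cancer, use this machinery for their dense-core vesicles, while most other lung cells secrete through broadly expressed relatives of these proteins.

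In Rb/p53 tumours 26 of the 42 genes rose against normal lung and 1 fell, at an adjusted p under 0.05 in limma (moderated linear models, with Benjamini-Hochberg adjustment over all probe sets). Over all genes 18.3% rose and 20.5% fell by the same rule, 38.8% in all. The median log2 change was 1.86 over the 42 genes and -0.02 over all genes. For 28 of them every tumour lay above both lungs and for 1 every tumour lay below, against 18.2% and 20.2% of all genes. In Rb/p53/p130 tumours 24 rose and 0 fell, with a median change of 1.59, against 15.3% of all genes called higher and 15.6% called lower, 30.9% in all. The unadjusted p was under 0.05 for 28 of the 42 in that comparison, and for 41.5% of all genes. Both comparisons rest on the same 2 lungs. The brightest probe set was picked by its mean over all arrays, most of them tumours, which can favour probe sets high in tumours. With the mean of all probe sets of a gene, the median change of the 42 genes was 1.51 in Rb/p53 tumours. It was 1.22 in Rb/p53/p130 tumours, against -0.01 over all genes in both comparisons. In whole tissue, more cells of a type and more RNA per cell cannot be told apart.

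The 3′ minus 5′ difference of the Gapdh control probe sets, a measure of RNA shortening, was 0.88 and 0.72 in the lungs, -0.07 to 0.36 in Rb/p53 tumours and -0.03 to 0.08 in Rb/p53/p130 tumours. The same difference of the actin control probe sets was 1.99 and 1.33 in the lungs. It was 0.50 to 1.35 in Rb/p53 tumours and 0.81 to 1.01 in Rb/p53/p130 tumours. By Gapdh both tumour groups lay apart from the lungs. By actin Rb/p53/p130 tumours did too, while Rb/p53 tumours overlapped with the lungs through tumour 1 alone. With the Gapdh difference as a covariate 13 of the 27 calls in Rb/p53 tumours remained, as did 10 of the 24 in the Rb/p53/p130 group, while the calls over all genes dropped to 6.08% and 5.17%. The genes kept in both were Snap25, Syt1, Syt7, Cplx2, Cadps, Rims2, Rimbp2, Pclo, Snap91 and Sh3gl2, and Rb/p53 tumours kept Cadps2, Syt11 and Syt13 as well, while Unc13b turned to 0.07 ± 0.49 (limma, adjusted p = 0.962). Among the calls lost in Rb/p53 tumours, Sv2a (2.63 ± 0.73), Rab3c (3.33 ± 1.18), Sv2b (3.24 ± 1.55) and Dnm1 (2.47 ± 0.93) kept a large change with a wider error, whereas Nsf (0.00 ± 0.43), Syp (1.38 ± 0.60) and Syn1 (1.09 ± 0.73) had smaller changes than without the covariate.

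**Figure D1:**
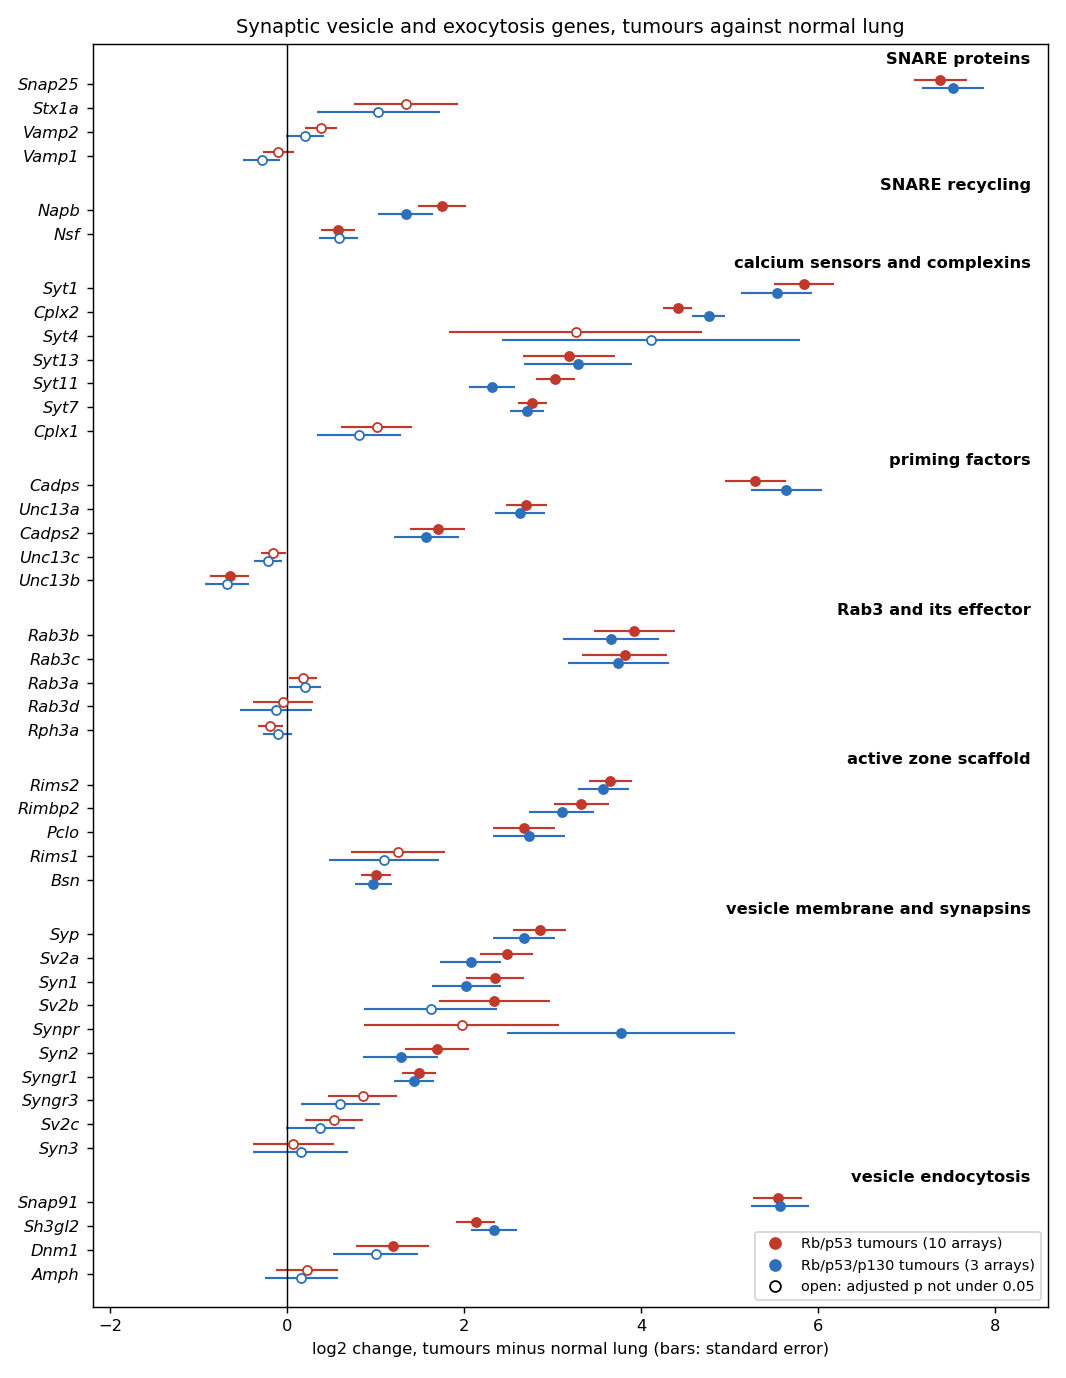
Log2 change of each of the 42 genes in Rb/p53 tumours (red, 10 arrays) and Rb/p53/p130 tumours (blue, 3 arrays) against the 2 normal lungs, with standard errors, grouped by role; open points had an adjusted p of 0.05 or more in limma. Snap25 lies farthest to the right at 7.38 and 7.52, and Unc13b is the only called fall, at -0.65 in Rb/p53 tumours.

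The subgroups differed in how many members were called. In Rb/p53 tumours 4 of 5 active zone genes rose with a median log2 change of 2.67, and 5 of 7 calcium sensors and complexins rose with a median of 3.18. Of the priming factors 3 of 5 rose and 1 fell, with a median of 1.70. Vesicle membrane genes and synapsins gave 6 of 10 with a median of 1.83, endocytosis genes 3 of 4 with 1.66, and the recycling factors 2 of 2 with 1.16. By contrast 1 of 4 SNARE genes rose, with a median of 0.86, and 2 of 5 genes of the Rab3 subgroup, with a median of 0.18. Rb/p53/p130 tumours gave the same counts of rises in 6 of the 8 subgroups; there the recycling factors had 1 rise of 2 and the endocytosis genes 2 of 4, and among vesicle membrane genes Synpr took the place of Sv2b. These counts describe subgroups of 2 to 10 genes, and no difference between subgroups was tested.

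The promoter sequences that follow show the windows of risen genes that hold letters known from promoters of neuronal genes. RefSeq windows (GRCm38.p6, from 250 bases before to 50 after the start) were found for 34 of the 42 genes, 43 windows in all. Both strands were searched for TTCAGCACC and GGACAGCG, the left arm and the first letters of the right arm of RE1, the element bound by the repressor REST; for TGACGTCA, the cyclic AMP response element (CRE) bound by CREB proteins; and for CAGCTG, an E-box read by proneural basic helix-loop-helix factors. No 2 matches overlapped in the windows of these genes. TTCAGCACC was found in Syn1 and Unc13a, and in 0.371% of all 32851 windows. GGACAGCG was found in Rimbp2 and Unc13a, and in 1.26% of all. TGACGTCA was found in Sh3gl2 and Syn1, and in 1.79% of all. CAGCTG was found in 13 of the 43 windows (30.2%) and in 16.3% of all. In Unc13a both RE1 arms lay just after the start, on the strand opposite to the gene, with the right arm at bases 7 to 14 and the left arm at bases 23 to 31. A match is a description of the letters and not a bound site. The 250 bases before the start of 5 genes, chosen for their matches and because they rose, and the stretch of Unc13a that spans both arms, are given 5′ to 3′ on the strand of the gene with the matched letters in capitals.
Syn1 (chrX:20920919-20921168, minus strand): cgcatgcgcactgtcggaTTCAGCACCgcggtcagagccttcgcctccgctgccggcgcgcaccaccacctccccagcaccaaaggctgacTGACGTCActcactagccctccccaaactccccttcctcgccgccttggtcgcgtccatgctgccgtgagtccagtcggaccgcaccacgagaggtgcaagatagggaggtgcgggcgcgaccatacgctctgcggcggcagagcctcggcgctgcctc
Rimbp2 (chr5:128953487-128953736, minus strand): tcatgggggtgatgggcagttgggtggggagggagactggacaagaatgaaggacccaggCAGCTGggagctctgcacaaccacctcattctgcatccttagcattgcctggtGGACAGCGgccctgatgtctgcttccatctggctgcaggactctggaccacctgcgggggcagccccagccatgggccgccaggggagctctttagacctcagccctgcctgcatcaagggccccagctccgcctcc
Sh3gl2 (chr4:85205206-85205455, plus strand): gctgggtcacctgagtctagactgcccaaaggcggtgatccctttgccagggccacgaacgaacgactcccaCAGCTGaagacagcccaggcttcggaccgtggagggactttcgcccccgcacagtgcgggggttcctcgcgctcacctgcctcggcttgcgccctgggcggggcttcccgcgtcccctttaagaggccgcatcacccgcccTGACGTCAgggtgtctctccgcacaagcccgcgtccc
Cplx2 (chr13:54302306-54302555, plus strand): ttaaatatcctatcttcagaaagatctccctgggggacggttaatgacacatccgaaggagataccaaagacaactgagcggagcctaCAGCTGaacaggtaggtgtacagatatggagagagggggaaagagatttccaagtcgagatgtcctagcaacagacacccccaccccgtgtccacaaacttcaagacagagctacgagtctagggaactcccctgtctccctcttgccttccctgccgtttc
Rab3c (chr13:110280207-110280456, minus strand): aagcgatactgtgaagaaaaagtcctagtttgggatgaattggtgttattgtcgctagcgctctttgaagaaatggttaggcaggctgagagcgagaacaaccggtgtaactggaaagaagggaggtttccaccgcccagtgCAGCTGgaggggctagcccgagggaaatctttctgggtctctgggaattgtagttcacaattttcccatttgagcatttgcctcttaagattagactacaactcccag
Unc13a (chr8:71671727-71671751, minus strand): CGCTGTCCgcgcccccGGTGCTGAA
In Syn1 the RE1 left arm began at position -232 and the CRE at -159 relative to the start, and in Sh3gl2 the CRE began at -37. The capitals in Cplx2 and Rab3c mark an E-box each. Of the 13 genes with an E-box, Cplx2, Rab3c, Rimbp2, Sh3gl2, Sv2a, Syt1 and Bsn rose in Rb/p53 tumours, while Cplx1, Rab3a, Rph3a, Stx1a, Unc13c and Amph did not pass the test.

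Among the SNARE proteins, which form the fusion bundle, the rise was that of Snap25, the plasma membrane member that gives a pair of the helices in the bundle. Its log2 level was 4.15 and 4.53 in the lungs, ran from 11.16 through a median of 11.62 to 12.63 in Rb/p53 tumours, and was 11.68, 11.74 and 12.15 in Rb/p53/p130 tumours. Every tumour lay far above both lungs. The change was 7.38 ± 0.30 (SE) in Rb/p53 tumours (adjusted p = 6.02e-10 in limma) and 7.52 ± 0.35 in Rb/p53/p130 tumours (adjusted p = 4.54e-09). Because the lungs lay under 5.05, the highest lower quartile of any array and the floor used here for dim probe sets, the first change is given as at least 102-fold. The second Snap25 probe set rose by 2.12. Stx1a, syntaxin 1A, the plasma membrane partner of Snap25, was 7.86 and 8.02 in the lungs and 7.07, 9.56 and 10.06 at the lowest, the median and the highest of the Rb/p53 tumours. It was 8.72, 9.04 and 9.15 in Rb/p53/p130 tumours. In 9 of 10 Rb/p53 tumours it exceeded both lungs and in tumour 5 it lay below both, and its change of 1.34 ± 0.59 did not pass (limma, adjusted p = 0.101); without tumour 5 it was 1.58 ± 0.37 (adjusted p = 0.00441). Vamp1 and Vamp2, the vesicle SNAREs, changed by -0.10 ± 0.18 and 0.38 ± 0.18, neither past the test; without tumour 2 the change of Vamp2 was 0.44 ± 0.15 (limma, adjusted p = 0.0414).

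The SNARE recycling factors take the spent bundle apart. Napb, beta-SNAP, which loads the ATPase on the bundle, was 6.82 and 6.85 in the lungs, 7.92 to 9.11 with a median of 8.63 in Rb/p53 tumours and 8.10, 8.17 and 8.26 in Rb/p53/p130 tumours. All tumours lay above the lungs, and it rose by 1.75 ± 0.27 (limma, adjusted p = 1.42e-04) and by 1.34 ± 0.31 (adjusted p = 5.58e-03). Nsf, the ATPase itself and a gene used by every cell, was 9.18 and 9.43 in the lungs, 9.60 to 10.29 with a median of 9.78 in Rb/p53 tumours and 9.72, 9.94 and 9.98 in Rb/p53/p130 tumours. Its rise of 0.57 ± 0.19 passed in Rb/p53 tumours (limma, adjusted p = 0.0298) but not without either lung (adjusted p = 0.270 and 0.0738), and 2 of its 4 probe sets were called.

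**Figure D2:**
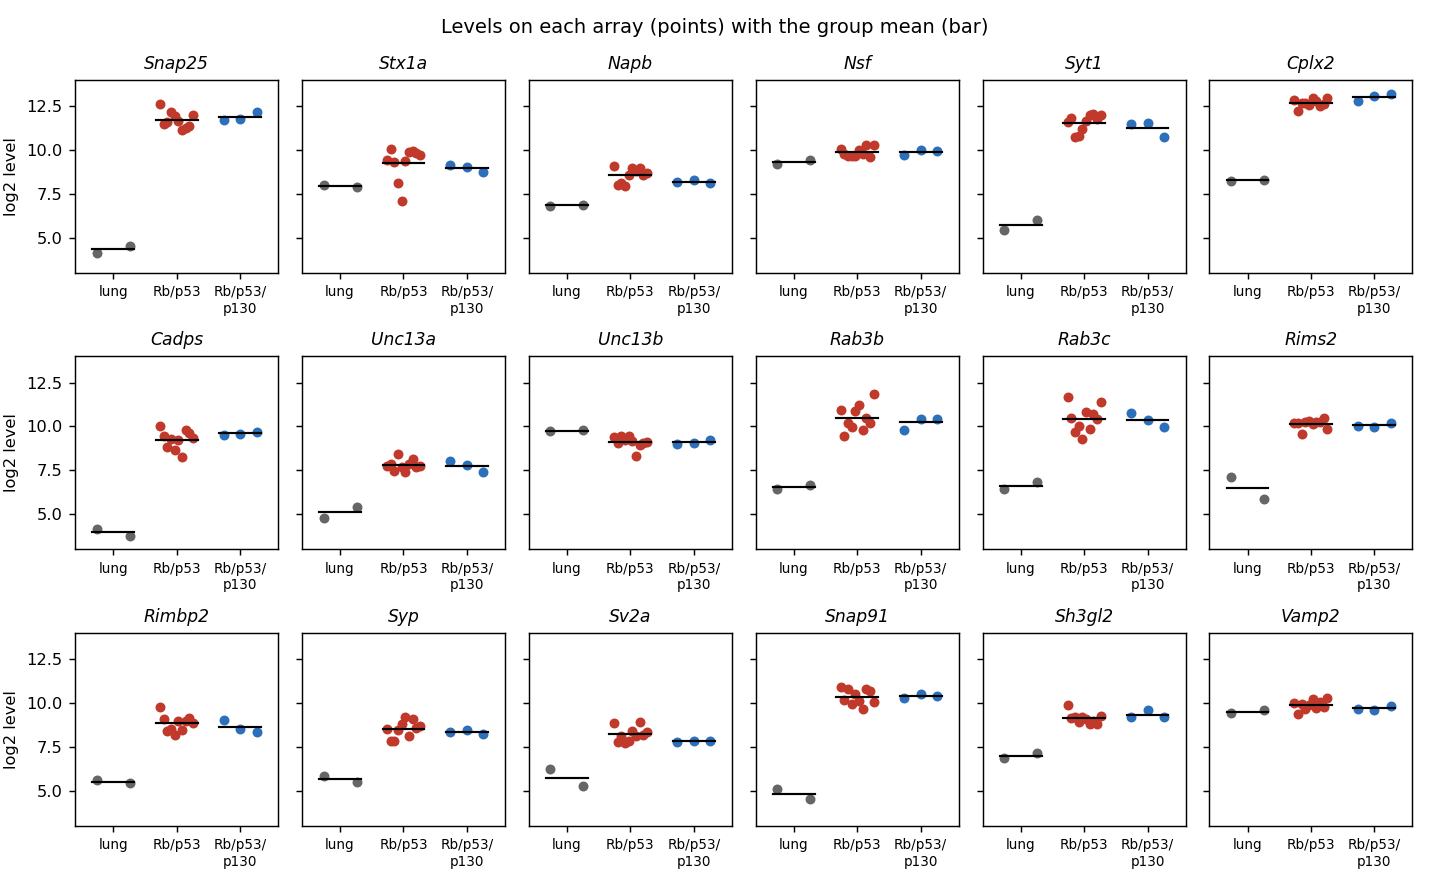
Log2 level on each array (points) with the group mean (bar) for 18 of the genes, in normal lung (grey, 2 arrays), Rb/p53 tumours (red, 10) and Rb/p53/p130 tumours (blue, 3). Snap25 stands at 4.15 and 4.53 in the lungs and from 11.16 upward in the tumours, whereas Vamp2 at 9.43 and 9.57 in the lungs overlaps with its tumours.

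The calcium sensors and complexins held several of the largest changes. Syt1, the fast calcium sensor, was 5.44 and 5.99 in the lungs, 10.76 to 12.07 with a median of 11.69 in Rb/p53 tumours and 10.72, 11.49 and 11.51 in Rb/p53/p130 tumours. It rose by 5.84 ± 0.34 (57.3-fold; limma, adjusted p = 1.37e-08) and by 5.53 ± 0.40. Cplx2, the complexin also used by endocrine cells, was 8.25 and 8.29 in the lungs, 12.24 to 12.95 with a median of 12.66 in Rb/p53 tumours and 12.81, 13.07 and 13.19 in Rb/p53/p130 tumours. The groups were far apart with little spread within each, and the rise was 4.41 ± 0.16 (21.3-fold; limma, adjusted p = 1.87e-10) and 4.76 ± 0.19. All of the 4 Syt1 and 3 Cplx2 probe sets rose. Syt7, a high-affinity sensor of slower release and of dense-core vesicles, rose by 2.77 ± 0.16. Syt11 and Syt13, which do not bind calcium, rose by 3.03 ± 0.22 and 3.18 ± 0.52 (limma, adjusted p = 1.07e-07 and 2.51e-04). Cplx1, the other complexin of the list and the one prominent in brain, had a change of 1.01 ± 0.40 that did not pass (limma, adjusted p = 0.0683), although all 10 tumours exceeded both lungs; without tumour 7 or tumour 10 the adjusted p was 0.0466 or 0.0473.

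Of the priming factors, Cadps, which encodes CAPS1 and primes dense-core vesicles, was 3.78 and 4.14 in the lungs, 8.26 to 10.01 with a median of 9.30 in Rb/p53 tumours and 9.53, 9.58 and 9.70 in Rb/p53/p130 tumours. With both lungs under the floor the rise of 5.29 ± 0.34 amounts to at least 18.4-fold (limma, adjusted p = 3.54e-08). Cadps2 rose by 1.70 ± 0.31. The Munc13 family split. Unc13a, the main synaptic Munc13, was 4.80 and 5.40 in the lungs, 7.42 to 8.44 with a median of 7.72 in Rb/p53 tumours and 7.39, 7.79 and 8.01 in Rb/p53/p130 tumours, a rise of 2.70 ± 0.23 (limma, adjusted p = 5.85e-07) in the first group. Unc13b, encoding Munc13-2, which is also present outside the nervous system, was 9.76 and 9.77 in the lungs, 8.32 to 9.45 with a median of 9.12 in Rb/p53 tumours and 8.99, 9.04 and 9.22 in Rb/p53/p130 tumours. All 13 tumours lay below both lungs, and it fell by 0.65 ± 0.22 in Rb/p53 tumours (limma, adjusted p = 0.0315). That call was lost without either lung (-0.66 ± 0.30 and -0.65 ± 0.30). In Rb/p53/p130 tumours the change of -0.68 ± 0.25 did not pass (limma, adjusted p = 0.0638). There it passed without tumour 7 (limma, adjusted p = 0.00607), with array weights (0.00521) and with that group and the lungs fitted alone (0.00687). It also passed with the mean of all probe sets (0.00353) and with arrays centred on their medians (0.046), but not under the other alternatives run. Unc13c was near or under the floor on every array, at most 4.86.

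Within the Rab3 subgroup, small GTPases of secretory vesicles, the paralogues also divided. Rab3b, the form known from endocrine and epithelial cells, was 6.46 and 6.69 in the lungs, 9.43 to 11.83 with a median of 10.35 in Rb/p53 tumours and 9.81, 10.45 and 10.45 in Rb/p53/p130 tumours. Rab3c, a vesicle form of brain and endocrine cells, was 6.43 and 6.81 in the lungs, 9.28 to 11.67 with a median of 10.46 in Rb/p53 tumours and 9.96, 10.36 and 10.77 in Rb/p53/p130 tumours. No tumour overlapped with the lungs for either, and the rises were 3.92 ± 0.46 and 3.81 ± 0.48 (limma, adjusted p = 1.28e-05 and 2.42e-05). Rab3a, the main Rab3 of brain synapses, changed by 0.18 ± 0.16, Rab3d, the form of exocrine granules, by -0.05 ± 0.34, and the effector Rph3a, which binds Rab3 on vesicles, by -0.19 ± 0.14; none of these passed. The dimmer probe set of Rab3a, however, rose by 0.80 ± 0.27 in Rb/p53 tumours (limma, adjusted p = 0.0307) and not in Rb/p53/p130 tumours (0.19 ± 0.31), and Rab3a was called when probe sets with a suffix for shared sequence were left out.

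The active zone scaffold holds vesicles near calcium channels. Rims2, a RIM protein that binds Rab3 and Munc13, was 5.88 and 7.09 in the lungs, 9.59 to 10.47 with a median of 10.21 in Rb/p53 tumours and 9.98, 10.01 and 10.17 in Rb/p53/p130 tumours. It rose by 3.65 ± 0.24 (limma, adjusted p = 4.78e-08). Rimbp2, which links RIM to calcium channels, was 5.43 and 5.60 in the lungs, 8.18 to 9.78 with a median of 8.90 in Rb/p53 tumours and 8.35, 8.49 and 9.02 in Rb/p53/p130 tumours, a rise of 3.32 ± 0.31 (adjusted p = 1.41e-06 in limma). Both lungs lay below every tumour for each gene, although the lungs themselves differed by over 1 for Rims2. The large scaffolds Pclo and Bsn rose by 2.67 ± 0.35 and 1.00 ± 0.17. Bsn was the 1 gene of the 42 with called probe sets in both directions, since a dimmer probe set fell by 0.39 ± 0.10 (limma, adjusted p = 0.0102). Rims1 was above both lungs in all 10 tumours, but its change of 1.25 ± 0.53 did not pass (limma, adjusted p = 0.0870).

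Among the vesicle membrane proteins Syp, synaptophysin, a standard histological marker of neuroendocrine tumours, was 5.50 and 5.82 in the lungs, 7.82 to 9.21 with a median of 8.53 in Rb/p53 tumours and 8.21, 8.35 and 8.44 in Rb/p53/p130 tumours. It rose by 2.85 ± 0.30 (limma, adjusted p = 4.35e-06). Sv2a, a vesicle glycoprotein and the target of levetiracetam, was 5.26 and 6.22 in the lungs, 7.69 to 8.89 with a median of 8.16 in Rb/p53 tumours and 7.76, 7.81 and 7.84 in Rb/p53/p130 tumours, a rise of 2.48 ± 0.30 (limma, adjusted p = 1.42e-05). For both genes every tumour exceeded both lungs, but the second, dimmer Syp probe set changed by -0.08 ± 0.19 and was not called. Syngr1, of the synaptophysin family, and Sv2b rose by 1.49 ± 0.19 and 2.34 ± 0.63, and the synapsins Syn1 and Syn2, which tether vesicles to the cytoskeleton, by 2.35 ± 0.33 and 1.69 ± 0.36. Not all probe sets followed: 1 of 3 was called for Syngr1, 1 of 2 for Sv2b and 4 of 6 for Syn2. Without the first lung the change of Sv2b was 2.10 ± 0.89 (limma, adjusted p = 0.121), and without the second lung those of Sv2b and Syn2 had adjusted p of 0.0540 and 0.0788. Syngr3, Sv2c and Syn3 changed by 0.85 ± 0.39, 0.53 ± 0.33 and 0.07 ± 0.46, and none passed; without tumour 3 the change of Syngr3 was 0.96 ± 0.34 (limma, adjusted p = 0.0461).

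In the endocytosis group Snap91, the clathrin adaptor AP180 of neurons, was 4.55 and 5.10 in the lungs, 9.67 to 10.88 with a median of 10.35 in Rb/p53 tumours and 10.28, 10.40 and 10.52 in Rb/p53/p130 tumours. On this brightest probe set it rose by 5.54 ± 0.28, at least 39.1-fold (limma, adjusted p = 3.89e-09). The second Snap91 probe set rose by only 1.13 in Rb/p53 tumours. In Rb/p53/p130 tumours that probe set changed by 0.32 and was not called. Sh3gl2, endophilin A1, which recruits dynamin and synaptojanin, was 6.84 and 7.16 in the lungs, 8.78 to 9.88 with a median of 9.11 in Rb/p53 tumours and 9.17, 9.22 and 9.58 in Rb/p53/p130 tumours, a rise of 2.13 ± 0.22 (limma, adjusted p = 3.44e-06). Neither gene overlapped between tumours and lungs. Dnm1, neuronal dynamin, rose by 1.19 ± 0.41 in Rb/p53 tumours (limma, adjusted p = 0.0355), with 9 of 10 tumours above the lungs, tumour 7 below both and 1 of its 2 probe sets called; without either lung the adjusted p was 0.167 or 0.177. Amph, amphiphysin, changed by 0.22 ± 0.35, which did not pass.

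The unequal change of related genes was tested on the brightest probe set of each gene. For each of 32 pairs of paralogues the difference between both log2 values on an array was compared between the 13 tumours and the 2 lungs by a two-sided exact permutation test over all arrangements, whose smallest p is 0.00952, with Benjamini-Hochberg adjustment over the pairs. The difference passed for 17 pairs, 16 of them at the smallest adjusted p obtained, 0.0190. That value depends on how many pairs share the smallest p. The share of passing pairs among other genes is not given here. Of all single genes 18.2% lay above both lungs in every Rb/p53 tumour and 20.2% lay below. The count of 17 therefore shows no trait particular to these families. Over all 13 tumours Cplx2 changed by 4.49 and Cplx1 by 0.96, Unc13a by 2.68 against -0.66 for Unc13b, and Cadps by 5.37 against 1.67 for Cadps2. Rab3b and Rab3c changed by 3.86 and 3.80 against 0.18 for Rab3a (brightest probe set) and -0.07 for Rab3d, and each of these 4 pairs passed. Rims2 changed more than Rims1 (3.63 against 1.21), Pclo more than Bsn (2.68 against 1.00), and Syn1 and Syn2 more than Syn3 (2.27 and 1.59 against 0.09). Vamp2 and Vamp1 differed less, at 0.34 and -0.15 (exact permutation test, adjusted p = 0.0359). Syt1 changed more than Syt7, Syt11 and Syt13, by 3.01, 2.91 and 2.56. For each of these pairs the difference lay beyond that of both lungs in 13 of 13 tumours. Probe sets of the same gene also differed widely in Rb/p53 tumours. Their changes ran from 0.18 to 3.91 for Rims2 and from 0.10 to 5.64 for Rab3c. They ran from 0.24 to 2.77 for Syt7 and from 0.73 to 3.18 for Syt13. With the mean of all probe sets of a gene 19 pairs passed. For 15 pairs the difference did not pass, among them Rab3b with Rab3c (0.06, adjusted p = 0.952 in the exact permutation test), Sv2a with Sv2b (0.21, adjusted p = 0.874), Syn1 with Syn2 (0.68, adjusted p = 0.131) and every pair with Syt4; this does not show that such pairs changed alike.

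**Figure D3:**
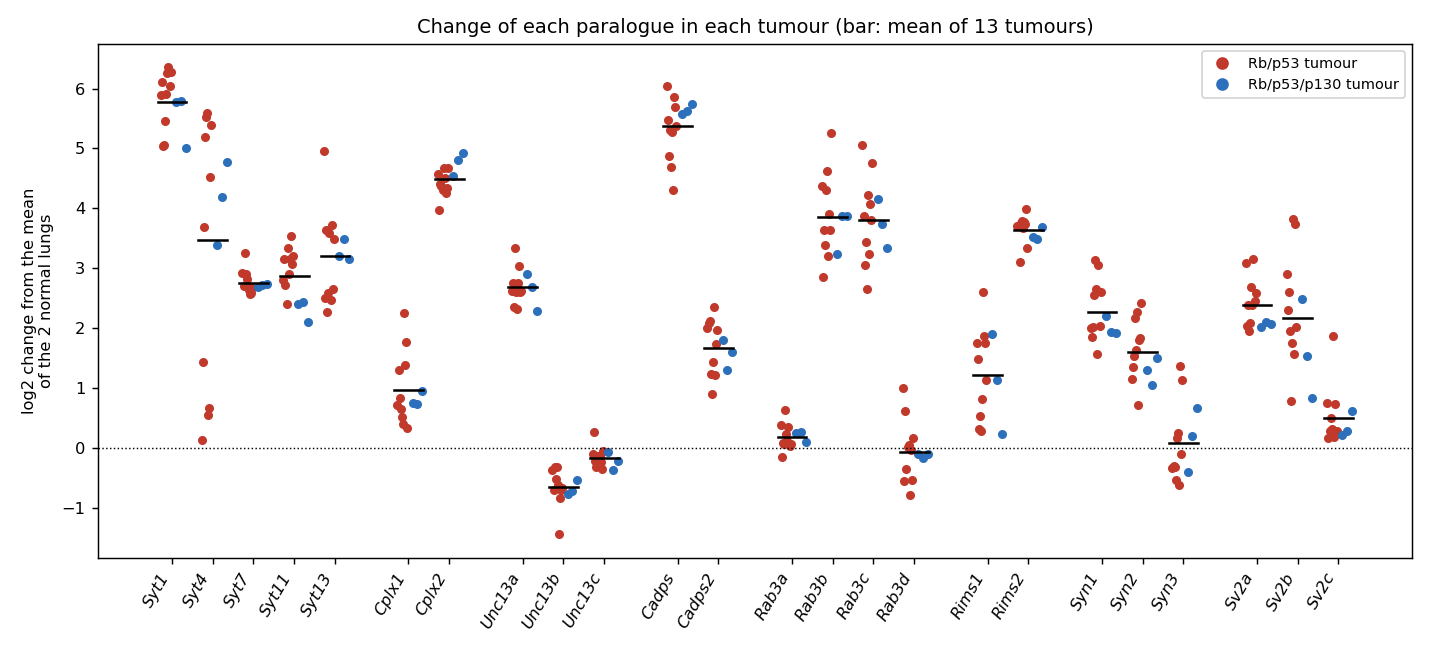
Log2 change of each paralogue in each tumour from the mean of the 2 normal lungs, in Rb/p53 tumours (red) and Rb/p53/p130 tumours (blue), with the mean of all 13 tumours as a bar. Within families some members lie near 0, such as Rab3a at 0.18 and Unc13c at -0.17, while others of the same family stand apart, such as Rab3b at 3.86 and Unc13a at 2.68.

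Between the tumour genotypes 0 of the 42 genes passed in limma, against 13 of all genes (0.0715%), and the unadjusted p was under 0.05 for 2 of them and for 7.26% of all genes, a share above that of these genes. Both are given as values only. Syt11 was 9.76 to 10.90 with a median of 10.46 in Rb/p53 tumours and 9.45, 9.75 and 9.79 in Rb/p53/p130 tumours. The difference was -0.72 ± 0.19 (p = 0.00164, adjusted p = 0.144 in limma), and it was -0.63 ± 0.14 (adjusted p = 0.0184) when arrays were weighted by their quality, a setting that called 3.64% of all genes. Cplx2 differed by 0.35 ± 0.13 (p = 0.0218, adjusted p = 0.384 in limma). The median difference over the 42 genes was -0.08, against 0.01 over all genes. A difference that missed the threshold with 3 arrays in 1 group does not show equal levels.

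Tumours differed from one another most in Syt4 and Synpr, 2 genes singled out after their values were seen. Syt4, a synaptotagmin of dense-core vesicles, was 5.37 and 4.68 in the lungs. In Rb/p53 tumours 1 to 10 it was 5.16, 6.45, 8.71, 10.21, 10.55, 10.61, 5.57, 5.69, 9.55 and 10.42, with its widest gap between 6.45 and 8.71. Tumours 1, 2, 7 and 8 lay on the low side, tumour 1 within the range of the lungs. Synpr, synaptoporin, a relative of synaptophysin, was 5.04 and 5.03 in the lungs and 7.39, 5.05, 6.93, 5.35, 7.45, 9.35, 5.02, 8.47, 5.36 and 9.68 in the same tumours. Here tumours 2, 4, 7 and 9 lay close to the lungs, so tumours 2 and 7 were low for both genes while 1, 4, 8 and 9 were low for 1 of them. In Rb/p53/p130 tumours 11 to 13 Syt4 was 8.42, 9.21 and 9.80 and Synpr 8.17, 9.13 and 9.12. The SD over Rb/p53 tumours was 2.31 for Syt4 and 1.78 for Synpr, and 3.64% of all genes had an SD over 1. With this spread the change against normal lung did not pass for Syt4 in Rb/p53 tumours (3.26 ± 1.43, limma adjusted p = 0.0976). In Rb/p53/p130 tumours, whose own SD was 0.69, it did not pass in the shared fit (4.11 ± 1.68, limma adjusted p = 0.0910). Fitted alone with the lungs, that group gave 4.11 ± 0.42 (limma adjusted p = 8.59e-04). With array weights the change against normal lung passed in both groups (limma adjusted p = 0.0305 and 0.0226). For Synpr it did not pass in Rb/p53 tumours (1.97 ± 1.10, adjusted p = 0.197) and passed in Rb/p53/p130 tumours (3.77 ± 1.29; limma, adjusted p = 0.0451), a call that was lost without either lung, without any 1 of tumours 11 to 13 and without tumour 1, 3 or 5.

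**Figure D4:**
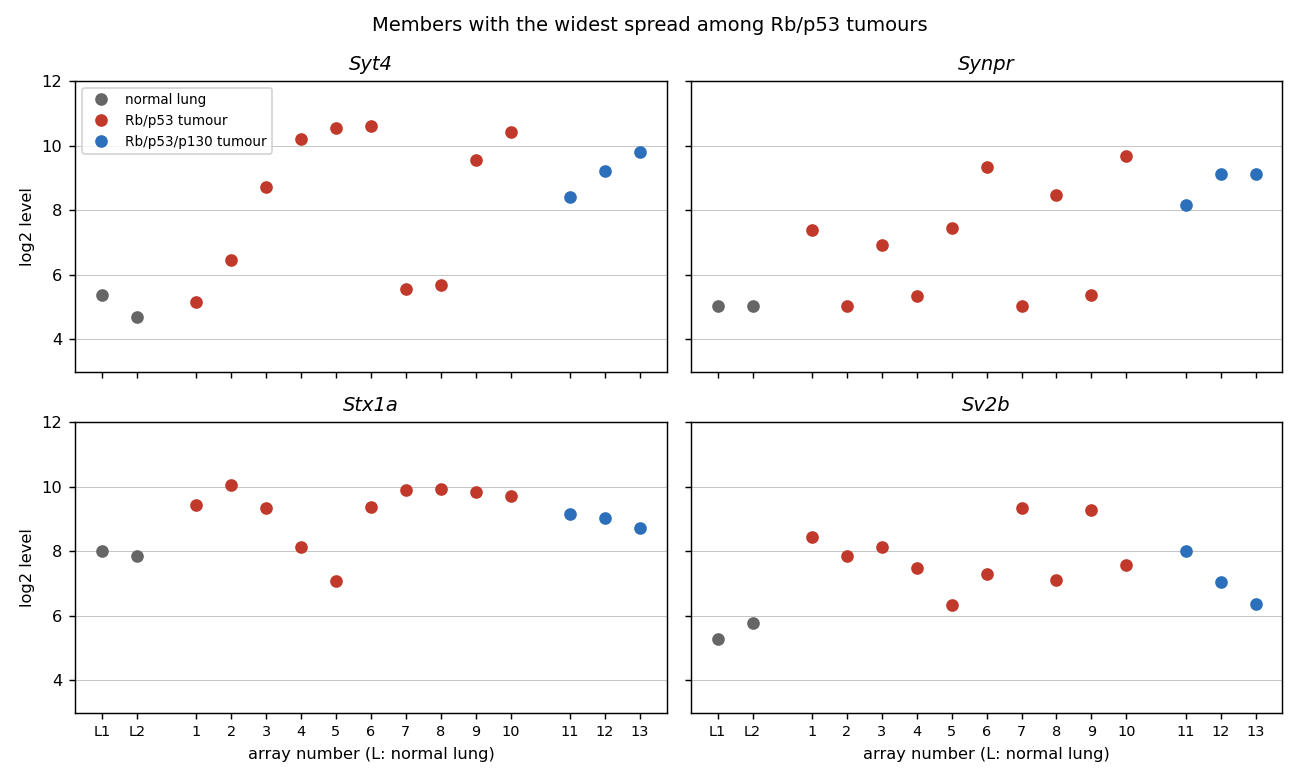
Log2 level on each array of the 4 genes with the largest SD among Rb/p53 tumours, in normal lung (grey, L1 and L2), Rb/p53 tumours 1 to 10 (red) and Rb/p53/p130 tumours 11 to 13 (blue). Syt4 ranges from 5.16 in tumour 1 to 10.61 in tumour 6. Of tumours 1, 2, 7 and 8, which are low for Syt4, tumours 2 and 7 are also low for Synpr. Stx1a is lowest in tumours 4 and 5 (8.12 and 7.07), and Sv2b is highest in tumour 7 (9.35).

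Markers of other cells were read on the same arrays. The mean log2 level of 6 alveolar type 2 genes was 10.74, 11.07, 12.46, 10.32, 12.19, 12.57, 9.80, 9.20, 10.71 and 12.39 in Rb/p53 tumours 1 to 10. It was 13.51 and 13.71 in the lungs. Its part in the spread of Syt4 and Synpr was not tested. The mean of 9 neuroendocrine genes ran from 11.48 to 12.38 in Rb/p53 tumours, and was 12.26, 11.63, 11.48 and 12.26 in tumours 1, 2, 7 and 8. The spread of the other genes was smaller. Sv2b and Stx1a had an SD of 0.95 each, Syt13 of 0.84 and Rims1 of 0.77; the median SD of the 42 genes was 0.47 against 0.28 for all genes, and 31 of the 42 lay above that median. Tumour 7 held the lowest level among the 10 for 11 genes, Dnm1, Synpr, Syn3 and Unc13b included, but the highest for 4 genes, Sv2b (9.35), Rims1 (8.01), Cplx1 (9.90) and Cadps2 (12.69). Tumour 1 held the highest level for 9 genes, among them Syt13 (10.22), Rab3c (11.67) and Sh3gl2 (9.88). Tumours 1, 2 and 3 had actin 3′ minus 5′ differences of 1.35, 1.12 and 1.24 against 0.50 to 0.71 in tumours 4 to 10, and Gapdh differences of 0.24, 0.14 and 0.36 against at most 0.06; the part of this in the differences between tumours was not tested. The relation of each gene to Insm1, a neuroendocrine transcription factor at 10.27 to 12.44 in these tumours, was computed over the 10 Rb/p53 tumours; by permutation test 3 of 42 Pearson correlations had an unadjusted p under 0.05 and 0 passed after Benjamini-Hochberg adjustment (smallest adjusted p = 0.70), and 0 passed by Spearman's rho.

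Lists of related genes set the 42 in context. For comparison, 18.3% of all genes rose and 20.5% fell in Rb/p53 tumours. In Rb/p53/p130 tumours these shares over all genes were 15.3% and 15.6%. Of 39 measured genes of other regulated exocytosis, 17 rose and 3 fell in Rb/p53 tumours with a median change of 0.89, and 15 rose and 1 fell in Rb/p53/p130 tumours with a median of 0.93. Syt9, a calcium sensor of fast release, rose by 3.96 ± 0.21, Syt16 at least 8.81-fold and the postsynaptic adhesion gene Nlgn1 at least 10.8-fold from lungs under the floor (limma, adjusted p = 4.54e-09, 5.88e-06 and 1.13e-05), while Sytl4, granuphilin, a docking factor of endocrine granules, fell by 2.48 ± 0.27 (limma, adjusted p = 6.93e-06). Syt10, also called lower, lay under the floor on every array of the lungs and tumours. Of 47 measured genes of general secretion and fusion, 6 rose and 10 fell in Rb/p53 tumours with a median of -0.05. In Rb/p53/p130 tumours 5 rose and 7 fell. The counts of this list are near the shares over all genes. Exoc4 of the exocyst rose by 1.00 ± 0.15, Sytl1 by 1.10 ± 0.32 and the clathrin light chain gene Cltb by 0.78 ± 0.16. Vamp5, a SNARE of muscle and endothelium, fell by 2.94 ± 0.43, Sytl2 by 2.88 ± 0.51 and Unc13d, the Munc13 of blood cell granules, by 2.35 ± 0.22 (limma, adjusted p = 8.52e-05, 4.95e-04 and 1.46e-06).

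All 9 measured neuroendocrine marker genes, among them Chga and Insm1, rose in both tumour groups; their mean was 5.41 to 5.91 in the lungs, 11.48 to 12.38 in Rb/p53 tumours and 11.73 to 12.07 in Rb/p53/p130 tumours. Of 9 autonomic neuron markers 1, Prph, rose in Rb/p53 tumours and none (0) did so with p130 also lost; Hand2 and Slc5a7 lay under the floor in every tumour and the mean was 5.66 to 5.73 in the lungs and 5.81 to 6.73 in Rb/p53 tumours. Of 6 Schwann cell and glial markers 1 rose and 2 fell in Rb/p53 tumours, with Cdh19 under the floor in every tumour and means of 7.16 to 7.31 in the lungs and 7.00 to 7.35 in these tumours. Markers of lung resident cells were lower in Rb/p53 tumours: all 6 endothelial genes (mean 11.25 to 11.67 in the lungs and 6.26 to 8.71 in Rb/p53 tumours), all 6 alveolar type 1, all 6 ciliated and all 6 cardiac muscle genes, 5 of 6 alveolar type 2 genes, 5 of 6 platelet genes and 2 of 4 club cell genes. In Rb/p53/p130 tumours the counts were 5 of 6 for alveolar type 1, 2 of 6 for alveolar type 2 and 1 of 4 for club cells. Of 7 mast cell genes 2 fell in Rb/p53 tumours, with Cpa3, Fcer1a and Ms4a2 under the floor in every tumour, and of 7 leukocyte genes 2 rose and 3 fell. Over all genes 18.3% rose and 20.5% fell in Rb/p53 tumours. Beside these shares, 1 risen autonomic marker of 9 and 2 fallen mast cell genes of 7 are little apart from other genes. The part of the marker shifts in the fall of Unc13b and in any rise was not tested. Of 5 liver genes 1 rose, with a mean of 11.21 in tumour 12 and 6.52 to 6.58 in the other two Rb/p53/p130 tumours.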

How the data were processed

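RNA was isolated with Trizol and amplified in a pair of rounds, per the labels' protocols, which moves signal towards the 3' end of transcripts. The deposited values are log2 expression values of 15 Affymetrix arrays made by RMA, per the submitters' processing notes; no batch or scan date is given in the sources used here. Without 64 controls, 45037 of 45101 probe sets were tested. A gene was read from its probe set with the highest mean, giving 18193 genes; 34741 probe sets were named by gene ID through RefSeq (GRCm38.p6). The 3 groups were fitted together in limma 3.58.1 (R 4.3.3) with Benjamini-Hochberg adjustment over all probe sets, and the fit was tested on simulated data. All 42 genes could be named; values on each array were given for the 2 largest changes of each subgroup, for falls and for differences between genotypes, and for Syt4 and Synpr, chosen after their values were seen. Of the related lists the 3 highest rises and 3 deepest falls by fitted change, without overlap of arrays, were named; for genes under the floor in lung this order is not certain. The genes, lists and markers were chosen with earlier results of these data known. Array number limits the precision. A few genes of the lists were not analysed here.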

Additional observations from a re-analysis of the deposited data

Results flagged for a closer look

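In the 10 Rb/p53 tumours, 7 of the 42 genes had 1 tumour that stood apart. Its gap to the nearest of the others, as a share of the whole range, exceeded Dixon's critical value. Chance gives this in about 1 of 20 groups of normal, unrelated values. The share over all genes is not given here, so the count shows no trait particular to these genes. Syt7 was 12.37 in tumour 3, against a mean of 11.84 ± 0.13 (SD, n = 9) in the others. Unc13b was 8.32 in tumour 7, against 9.20 ± 0.19 (SD, n = 9). Unc13c was 4.86 in tumour 2, against 4.40 ± 0.10, all under the floor. Bsn was 7.16 in tumour 2, against 7.82 ± 0.14. Sv2c was 6.51 in tumour 6, against 5.03 ± 0.22. This level was over the floor but under the medians of the arrays, 6.58 to 6.68. Tumours 1, 4 and 8 also lay over the floor, at 5.39, 5.14 and 5.38. Dnm1 was 7.24 in tumour 7, against 8.88 ± 0.41. Sh3gl2 was 9.88 in tumour 1, against 9.04 ± 0.18.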

How the results depend on the processing

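Apart from the Gapdh covariate and, between genotypes, array weights, the counts of called genes stayed within 1.5 times of the main counts under the alternatives run (normalisation, centring, prior, filter, probe set choice, a minimum change of 1 and each array left out). The Gapdh 3' minus 5' covariate left 13 and 10 called genes against normal lung, with 6.08% and 5.17% of all genes called. It turned Unc13b to 0.0699. The actin covariate, added after seeing the data, left 23 and 21. With it 4472 and 4121 of 18193 genes were called, against 7058 and 5622 in the main fits. Array weights gave 1 call between genotypes, Syt11, with 3.64% of all genes called. The replicate block on numbers 1 and 2, which the labels do not tie to a shared animal or batch, gave 26 calls, 23 of them shared with the 27. With the block 3891 of 18193 genes were called. Leaving out each array gave 22 to 28 calls for Rb/p53 tumours and 22 to 26 for Rb/p53/p130 tumours; 5 genes lost and 4 gained a call in the first comparison, and 3 and 3 in the second. With 1 tumour left out at a time, 6724 to 7194 and 4439 to 5956 of 18193 genes were called in these comparisons. Without 1 lung fewer of all genes were called in both than in the main fits. Calls of paralogue pairs ranged from 16 to 19. Fitting each pair of groups alone gave 25 and 32 calls against normal lung, with 6451 and 7843 of 18193 genes called. In Rb/p53 tumours Dnm1 and Unc13b lost their calls in that fit. The gains in Rb/p53/p130 tumours were Cplx1, Dnm1, Nsf, Stx1a, Sv2b, Syngr3, Syt4 and Unc13b. One planned relation across tumours was not run, and the relation with Insm1 was added after seeing the data. With 2 lungs, small changes of genes that vary among tumours could not be resolved.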
